A study of Mus musculus with 30 samples.

Results

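Macrophages that had left a tumour for a culture dish were compared here with the same kind of cell taken straight from the tumour. Tumour-associated macrophages of the MHC-IIlo subset, which carry little MHC class II on their surface, were sorted from subcutaneous 3LL-R tumours, a Lewis lung carcinoma line, grown in WT C57BL/6 mice. The 5 cultured libraries hold 250000 sorted cells each that were kept for 24 h without added lactate and lysed in the well. The 5 fresh libraries hold 30000 cells each that were sorted directly into lysis buffer. These 10 libraries were taken by their names in the count table, out of 30 in the series. Culture therefore goes together with cell number and with the route of lysis, and the 3 cannot be told apart. The corresponding 5 cultured and 5 fresh MHC-IIhi libraries, treated in the same way, were used for 1 question, which is where the change with culture differed between the subsets. The remaining 10 libraries, cultured for 24 h with 20 mM sodium L-lactate, were not compared and appear once, as values side by side. The labels call the samples biological replicates without saying whether each came from its own animal, pool or culture, so p-values measure the spread between these samples. The culture medium, the sort gates and the animals' age and sex are not given in the sources used here.

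Macrophages adjust their transcripts within hours to the signals around them. Type I interferon acts through a complex that includes STAT2 and IRF9 and binds the interferon-stimulated response element in the promoters of antiviral and antigen-presentation genes. Low oxygen stabilises hypoxia-inducible factors, which raise glucose uptake, glycolysis and vessel growth factors, and MHC-IIlo macrophages of this tumour model have been described in poorly oxygenated areas. Immediate early genes such as Fos and Egr1 are transcribed within minutes of a stimulus, including the handling that frees cells from a tissue, and their transcripts decay quickly.

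The count tables held 24050876 to 29928350 counts per library in cultured cells and 17838799 to 20999665 in fresh cells (exact permutation test over all groupings, 2-sided p = 0.00794, the smallest that 5 against 5 libraries allow). Genes of the mitochondrial genome took 0.283 ± 0.0509% of the counts in cultured cells and 0.940 ± 0.0941% in fresh cells, and the 10 most abundant genes took 12.5 ± 0.719% in cultured cells and 8.07 ± 0.275% in fresh cells (SD, n = 5 each; same exact permutation test, p = 0.00794 for both). A principal component analysis of these 10 libraries placed the cultured ones apart from the fresh ones on an axis that held 71.8% of the variance. On the next axis, with 7.42%, fresh libraries 2 and 3 stood apart from the other fresh libraries. Cultured library 3 stood apart from the other cultured libraries in MHC class II genes, as described with those genes. No pair of libraries looked like 1 library deposited again: within a group, the chi-square of counts per degree of freedom between libraries was 7.38 to 35.2.

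Macrophage genes were abundant in both conditions. Adgre1, which encodes the macrophage surface marker F4/80, was at 1029, 885, 589, 769 and 775 CPM (counts per 1000000 reads, scaled between libraries by the TMM method) in cultured libraries 1, 3, 4, 5 and 6, against 572, 455, 483, 610.3 and 748 CPM in fresh libraries 1 to 5. All later lists of values keep this order of libraries. The numbers are those in the names of the count columns, which for cultured libraries differ from the replicate numbers of the sample labels, so a cultured number names a library and not a labelled replicate. Its log2 fold change was 0.50 ± 0.19 (cultured over fresh, ± SE; adjusted p = 0.0264), and the groups overlapped. Without fresh library 2, fresh library 3, cultured library 1 or cultured library 3 its adjusted p was 0.0709, 0.0631, 0.0838 and 0.0541. Cd68, a lysosomal membrane protein of macrophages, was at 2385 to 3144 CPM in cultured cells and 1208 to 1744 CPM in fresh cells. H2-Ab1, the beta chain of the class II molecule by which the subsets were named, averaged 88.9 ± 29.3 CPM in fresh MHC-IIlo cells and 4863 ± 472 CPM in fresh MHC-IIhi cells (SD, n = 5 each).

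Most of the transcriptome differed between cultured and fresh cells. Of 13682 genes tested with edgeR's quasi-likelihood test, 7850 passed at a Benjamini-Hochberg adjusted p under 0.05, which is 57.4%. Among them 3772 were higher in cultured cells (27.6% of genes tested) and 4078 were lower (29.8%), and 1404 rose and 1723 fell by at least 1 on the log2 scale. The median log2 fold change over all genes tested was -0.007. The values of the 5 cultured and 5 fresh libraries did not overlap for 6150 genes, or 44.9%. Counts for gene groups are read against these shares, since a group in which roughly 3 in 5 genes passed does not stand apart from the whole. The difference in culture response between the subsets was tested for each gene as the log2 fold change in MHC-IIlo minus that in MHC-IIhi cells, and 1940 of 13682 genes passed (14.2%), 818 with a positive difference (5.98%) and 1122 with a negative one (8.20%). That balance turned when the authors' FPKM values were tested instead with limma, with 1211 positive and 988 negative. Other scalings of the counts kept it, with 806 positive and 1119 negative by RLE size factors and 678 and 1203 by library size only. Why the FPKM fit differed was not tested.

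The largest rise by the rule used to name genes was that of Npy, neuropeptide Y (GRCm38 chromosome 6, 49822710 to 49829507), with 82.4, 131, 88.5, 72.3 and 89.1 CPM in cultured cells, against 0.514, 0.532, 0.173, 0.940 and 0.530 CPM in fresh cells, a log2 fold change of 7.45 ± 0.36 (adjusted p = 7.17e-13). Ccl5, a chemokine that attracts T cells and monocytes (chromosome 11, 83525778 to 83530518), had 419, 572, 422, 369 and 412 CPM in cultured cells, against 3.65, 3.72, 2.73, 3.50 and 5.51 CPM in fresh cells (log2 fold change 6.85 ± 0.25, adjusted p = 5.28e-15). Cd200, the ligand of an inhibitory receptor on myeloid cells, had 61.3, 101, 77.9, 65.7 and 60.8 CPM in cultured cells, against 0.400, 0.725, 1.43, 0.417 and 0.371 CPM in fresh cells (log2 fold change 6.71 ± 0.26, adjusted p = 1.52e-14). For each of these 3 genes the lowest cultured library lay far above the highest fresh one. The other 9 genes with the largest rises were Ifit1bl1, Ly6a, Ifit3b, Ifit3, Gpnmb, Ifi44, Ifit2, Il7r and H2-Q6, with log2 fold changes of 6.47, 6.40, 6.33, 5.68, 5.54, 5.51, 5.50, 5.44 and 5.41. Ifit3 and Ifit3b, Ifit1 and Ifit1bl1, and H2-Q6 and other class I genes are related genes between which reads could be split, so the values of each alone are uncertain. Ly6a encodes the interferon-inducible surface protein Sca-1, and cultured library 3 was highest for it, with 1005, 1467, 875, 971 and 965 CPM in cultured cells, against 12.7, 12.6, 12.5, 11.3 and 13.7 CPM in fresh cells.

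The largest fall was that of Fosb, a subunit of the transcription factor AP-1 (chromosome 7, 19302721 to 19310045), with 0.764, 0.424, 1.14, 0.836 and 0.644 CPM in cultured cells, against 581, 388, 586, 1394 and 1346 CPM in fresh cells (log2 fold change -10.13 ± 0.56, adjusted p = 6.51e-12). Fn1, which encodes fibronectin (chromosome 1, 71585520 to 71653200), had 33.8, 29.4, 19.4, 22.9 and 22.1 CPM in cultured cells, against 9426, 10520, 9251, 9727 and 5987 CPM in fresh cells (log2 fold change -8.46 ± 0.27, adjusted p = 4.23e-16). Fn1 thus stood among the more abundant transcripts of every fresh library and was low in every cultured one, with fresh library 5 the lowest of its group. Cd163, the scavenger receptor for haemoglobin bound to haptoglobin (chromosome 6, 124304656 to 124330527), had 0.903, 2.93, 2.32, 1.84 and 2.58 CPM in cultured cells, against 443, 463, 457, 726 and 698 CPM in fresh cells (log2 fold change -8.05 ± 0.30, adjusted p = 1.58e-14). The other 9 of the largest falls were Il1b, Nr4a1, Trem1, Egr1, B3gnt7, Cdh1, Car4, Fos and Osm, at -7.32, -7.14, -6.63, -6.43, -6.30, -6.26, -5.96, -5.73 and -5.71 on the log2 scale. Among these, Trem1 encodes a receptor that amplifies inflammatory signals, Cdh1 encodes E-cadherin and Car4 a membrane-bound carbonic anhydrase. No cultured library reached the lowest fresh one for any of the 12.

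**Figure D1:**
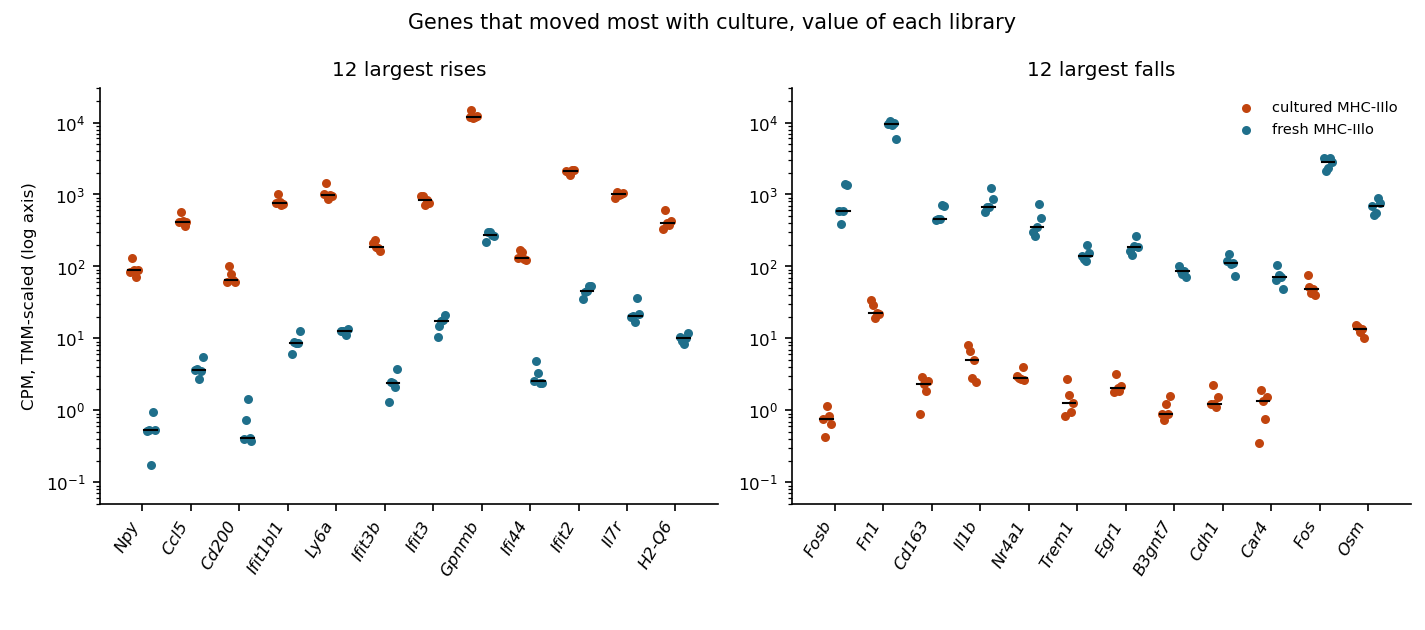
CPM (log axis, TMM-scaled) of the 12 genes with the largest rises (left panel) and the 12 with the largest falls (right panel) in each of the 5 cultured (orange) and 5 fresh (blue) MHC-IIlo libraries; bars are medians. The clouds of cultured and fresh points are separate for all 24 genes, from log2 fold changes of 5.41 (H2-Q6) to 7.45 (Npy) on the left and -5.71 (Osm) to -10.13 (Fosb) on the right.

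Interferon-stimulated genes were the group that rose most completely. Of 36 listed and tested, 34 rose and 2 fell, against 27.6% and 29.8% of all genes, and the median log2 fold change was 3.28. Irf7, the transcription factor that amplifies the type I interferon response, had 3386, 4121, 2697, 3000 and 2869 CPM in cultured cells, against 153, 151, 147, 172 and 198 CPM in fresh cells (log2 fold change 4.29 ± 0.18, adjusted p = 1.95e-14). Ifit2, a protein that binds and restrains foreign RNA, had 2122, 2049, 1878, 2215 and 2162 CPM in cultured cells, against 35.2, 43.6, 45.3, 53.3 and 53.1 CPM in fresh cells (log2 fold change 5.50 ± 0.28, adjusted p = 7.66e-13). The cultured libraries held Ifit2 within a narrow band, while all fresh libraries lay below 60 CPM. Rsad2, the antiviral enzyme viperin, averaged 2092 ± 186 CPM in cultured cells and 68.3 ± 14.1 CPM in fresh cells (SD, n = 5 each), and Oas3, which makes the second messenger that activates RNase L, averaged 1205 ± 147 CPM in cultured cells and 44.2 ± 4.25 CPM in fresh cells. Isg15, a ubiquitin-like modifier, was at 491 to 734 CPM in cultured cells and 20.7 to 35.1 CPM in fresh cells, and Usp18, the protease that removes it and dampens interferon signalling, was at 569 to 858 CPM in cultured cells and 18.1 to 23.9 CPM in fresh cells.

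The factors that carry the interferon signal rose as well. Stat2 rose by 3.25 and Irf9 by 1.83 on the log2 scale (adjusted p = 1.35e-13 and 5.05e-14). The receptor chain Ifnar2 rose by 0.63, while Ifnar1, at 0.14, did not pass (adjusted p = 0.271). The 2 members that fell were Ifitm1, at -3.17, a membrane protein that blocks virus entry, and Irf8, at -0.59, a transcription factor of the monocyte and dendritic lineages. By the test of the difference between the subsets, 8 members had a negative difference and 1, Ifitm3, a positive one. Without cultured library 3, or without fresh libraries 2 and 3, 0 members had a positive difference that passed. Rsad2 was among the 8, with a log2 fold change of 4.94 in MHC-IIlo and 6.69 in MHC-IIhi cells (difference -1.75 ± 0.27, adjusted p = 0.00017).

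The interferon-stimulated response element is the letter pattern that these factors bind, and its core was searched as GAAANNGAA, read as TTCNNTTTC on the other strand, in RefSeq promoter windows of the GRCm38.p6 build from 250 bases before to 50 bases after each start. It occurred in 60.7% of the 28 listed interferon genes with an entry and in 9.76% of all 27025 genes. The 150 bases before the start are shown for 4 of the genes whose values are given above or that lead the list, 5′ to 3′ on the gene's own strand, with the core in capitals.
Ifit1 (chr19:34640739-34640888, plus strand): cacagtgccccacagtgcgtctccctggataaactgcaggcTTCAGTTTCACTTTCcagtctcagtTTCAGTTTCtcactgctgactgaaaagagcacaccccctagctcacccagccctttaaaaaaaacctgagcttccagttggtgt
Ifit3 (chr19:34583379-34583528, plus strand): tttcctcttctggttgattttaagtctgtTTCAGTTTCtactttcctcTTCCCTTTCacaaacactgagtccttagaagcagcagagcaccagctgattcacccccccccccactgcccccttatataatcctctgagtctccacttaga
Isg15 (chr4:156200819-156200968, minus strand): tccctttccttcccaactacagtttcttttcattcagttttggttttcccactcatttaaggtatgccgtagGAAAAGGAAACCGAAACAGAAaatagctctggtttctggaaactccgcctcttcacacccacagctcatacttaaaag
Oas3 (chr5:120777660-120777809, minus strand): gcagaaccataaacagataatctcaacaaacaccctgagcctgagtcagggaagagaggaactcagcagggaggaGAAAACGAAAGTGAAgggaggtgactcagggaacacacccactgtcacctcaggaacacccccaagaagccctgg
Ifit1 and Isg15 each hold 3 matches, some of which overlap, and Ifit3 and Oas3 hold 2 each. A match describes the letters and does not show that a factor was bound. Ifit1 had 981, 1145, 956, 981 and 962 CPM in cultured cells, against 23.6, 25.5, 23.8, 29.02 and 29.99 CPM in fresh cells.

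Genes of antigen presentation to CD8 T cells rose as well. Of 17 listed genes of MHC class I presentation, 15 rose and 1 fell, with a median log2 fold change of 1.47. H2-K1, a class I heavy chain, had 4602, 6079, 3720, 4384 and 4646 CPM in cultured cells, against 1200, 964, 964, 1161 and 1200 CPM in fresh cells (log2 fold change 2.09 ± 0.15, adjusted p = 9.81e-11). B2m, its light chain, rose by 1.71 to 7198 ± 724 CPM in cultured cells, against 2203 ± 335 CPM in fresh cells, and Tapbp, which loads peptides, rose by 2.19 (adjusted p = 5.11e-13). H2-T23 encodes the Qa-1 molecule that NK cells and CD8 T cells recognise and was at 692 to 999 CPM in cultured cells, against 96.9 to 136 CPM in fresh cells. The immunoproteasome subunits Psmb8, Psmb9 and Psmb10 rose by 1.30, 1.47 and 1.41. The member that fell was the endoplasmic reticulum chaperone Pdia3, at -0.23. Cd274, which encodes the inhibitory ligand PD-L1, had 1323, 1557, 1406, 1417 and 1431 CPM in cultured cells, against 132, 135, 125, 176 and 147 CPM in fresh cells, a log2 fold change of 3.32 ± 0.14 (adjusted p = 1.95e-14).

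Receptors for nucleic acids rose, and the Toll-like receptor system as a whole had 10 of 17 listed genes higher and 4 lower. The endosomal receptors Tlr3, Tlr7, Tlr8, Tlr9 and Tlr13 rose by 1.92, 0.63, 0.83, 1.16 and 1.70. Tlr3, the receptor for double-stranded RNA, was at 54.0 to 58.3 CPM in cultured cells and 12.6 to 16.9 CPM in fresh cells. Cd180, a Toll-like receptor homologue, averaged 965 ± 69.7 CPM in cultured cells and 99.8 ± 13.7 CPM in fresh cells (log2 fold change 3.27 ± 0.19, adjusted p = 6.19e-12). Most receptors for bacterial lipids and proteins at the cell surface did not rise. Cd14, the coreceptor for lipopolysaccharide, had 98.3, 125, 89.5, 100 and 87.1 CPM in cultured cells, against 1116, 863, 901, 1499 and 1299 CPM in fresh cells, and Tlr1, Tlr2 and Tlr5 fell by 1.06, 0.77 and 4.93 on the log2 scale. Tlr6, which pairs with Tlr2, rose by 0.54, and Tlr4 did not pass (log2 fold change -0.25, adjusted p = 0.065).

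**Figure D2:**
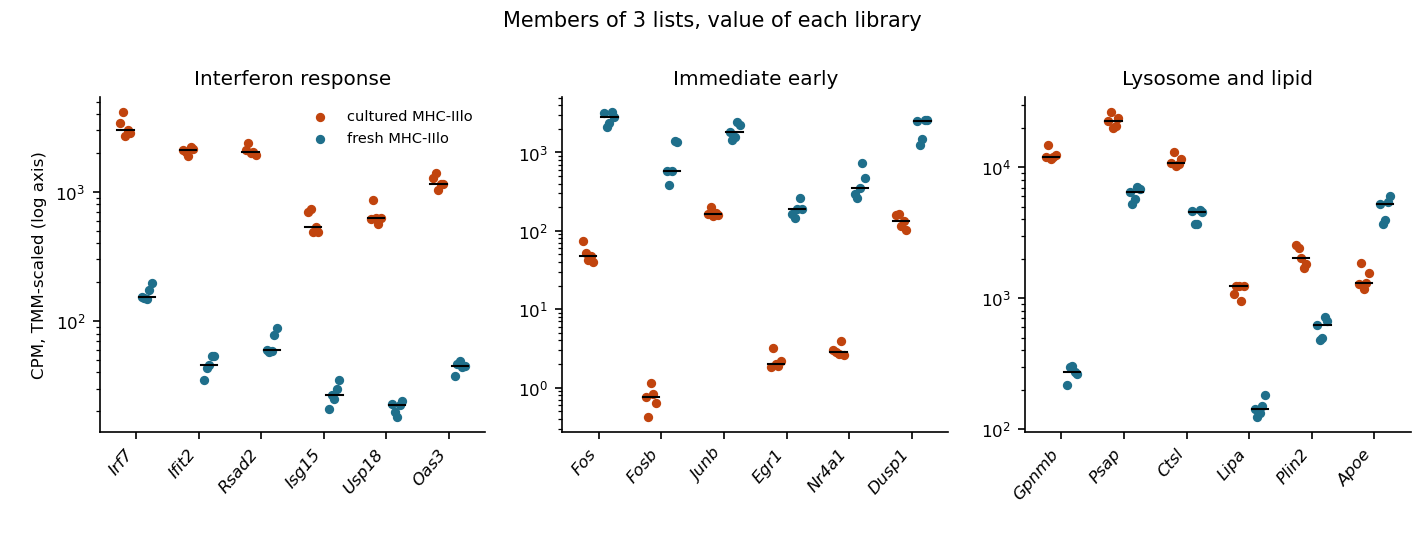
CPM (log axis, TMM-scaled) of 6 interferon genes, 6 immediate early genes and 6 genes of lysosomes and lipid handling in each of the 5 cultured (orange) and 5 fresh (blue) MHC-IIlo libraries; bars are medians. Cultured points lie above fresh ones in the left panel and below them in the middle panel, and in the right panel Apoe, with a log2 fold change of -1.76, is the gene that was lower in cultured cells.

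Immediate early genes showed the opposite pattern. Of 25 listed, 22 fell and the other 3 did not pass, and the median log2 fold change was -3.49. Fos, another AP-1 subunit, had 75.1, 52.0, 43.1, 48.3 and 39.6 CPM in cultured cells, against 3171, 2117, 2349, 3245 and 2863 CPM in fresh cells (log2 fold change -5.73 ± 0.26, adjusted p = 7.05e-14). Egr1, a zinc finger transcription factor, had 1.81, 3.20, 2.02, 1.88 and 2.16 CPM in cultured cells, against 166, 146, 192, 263 and 187 CPM in fresh cells (log2 fold change -6.43 ± 0.22, adjusted p = 2.29e-15). For both genes the highest cultured library lay far below the lowest fresh one. Nr4a1, an orphan nuclear receptor, had 2.99, 2.81, 2.70, 3.97 and 2.61 CPM in cultured cells, against 297, 265, 353, 740.2 and 478 CPM in fresh cells, with fresh library 4 the highest. Dusp1, a phosphatase that switches off MAP kinases, had 160.1, 164, 117, 132 and 103 CPM in cultured cells, against 2505, 1241, 1467, 2573 and 2574 CPM in fresh cells, and fresh libraries 2 and 3 were the lowest of their group. Junb fell by 3.49, Zfp36, which destabilises cytokine transcripts, by 3.92 and Klf2 by 3.91 on the log2 scale. Btg2, an antiproliferative factor, fell to 7.77 ± 2.23 CPM in cultured cells, against 226 ± 35.2 CPM in fresh cells (adjusted p = 1.41e-14). Egr2, which is induced in alternatively activated macrophages, had 35.9, 23.5, 34.6, 38.1 and 48.1 CPM in cultured cells, against 139.8, 131, 166, 252.2 and 190.2 CPM in fresh cells, and its fall was smaller than the -4.53 ± 0.29 of MHC-IIhi cells (difference 2.25 ± 0.36, adjusted p = 0.000308). The members that did not pass were Atf3, Ier5 and Fosl1, at -0.36, -0.42 and 0.05.

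The letters TGACG are a half-site of the cyclic AMP response element and read CGTCA on the other strand. They occurred in 66.7% of the 21 listed genes with an entry and in 23% of all genes in the same windows. The letters of an AP-1 site, TGANTCA on either strand, occurred in 0 of the 21 and in 8.97% of all genes. A CArG box, CC and GG around a run of A or T, occurred in 2 of the 21 (9.52%) and in 1.81% of all genes. The 150 bases before the start of Fos and Nr4a1, 2 of the listed genes that fell most, are shown with TGACG or CGTCA in capitals.
Fos (chr12:85473740-85473889, plus strand): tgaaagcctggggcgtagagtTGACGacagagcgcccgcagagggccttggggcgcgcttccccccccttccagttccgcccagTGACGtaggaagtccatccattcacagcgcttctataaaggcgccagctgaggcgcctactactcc
Nr4a1 (chr15:101266696-101266845, plus strand): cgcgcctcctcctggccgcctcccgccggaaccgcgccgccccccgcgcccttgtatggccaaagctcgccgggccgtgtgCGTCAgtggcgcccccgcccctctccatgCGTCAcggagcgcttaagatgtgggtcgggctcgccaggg
Each holds 2 matches, and those of Nr4a1 are on the other strand.

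Heat shock chaperones did not move as a group: 3 of 14 rose, 5 fell and 6 did not pass, a share of 57.1% that is close to that of all genes. The largest falls were those of the inducible chaperone genes Hspa1a and Hspa1b, near-identical copies between which reads could be split, at -4.22 and -4.24, and of the small heat shock protein gene Hspb1, at -2.74. Hspa1a had 4.59, 9.67, 5.63, 7.36 and 5.46 CPM in cultured cells, against 94.5, 66.6, 80.4, 185 and 184 CPM in fresh cells (log2 fold change -4.22 ± 0.34, adjusted p = 1.63e-09). Fresh libraries 4 and 5 were the highest of their group for Hspa1a, as they were for Fosb. The constitutive Hspa8 fell by 0.69, and Hsp90aa1 and Hspd1 rose by 0.34 and 0.45 on the log2 scale. The letters GAANNTTC of the heat shock element occurred in 72.7% of the 11 chaperone promoters with an entry and in 9.04% of all.

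Lysosomal and lipid-handling genes rose together. Of 30 listed lysosomal genes 18 rose and 3 fell (median log2 fold change 0.74), and of 19 genes of lipid handling 14 rose and 2 fell (median 1.40). Gpnmb, a glycoprotein of lysosomes and phagosomes (chromosome 6, 49036546 to 49070929), had 12070, 14890, 11640, 11890 and 12380 CPM in cultured cells, against 217, 297, 303, 272 and 264 CPM in fresh cells (log2 fold change 5.54 ± 0.19, adjusted p = 9.39e-16). It was a minor transcript in fresh cells and among the most abundant in every cultured library, and with the authors' FPKM values (+ 1) its log2 fold change was 3.92. Psap, the precursor of the saposins that help to break down sphingolipids, had 22610, 26260, 20140, 20810 and 23840 CPM in cultured cells, against 6491, 5274, 5702, 7062 and 6799 CPM in fresh cells (log2 fold change 1.86 ± 0.15, adjusted p = 1.04e-09). With the FPKM values its log2 fold change was 0. Those values share 1 distribution across libraries, so a gene that keeps its rank gets the same value in each of them. The protease genes Ctsl and Ctsb averaged 11277 ± 1134 and 18703 ± 2178 CPM in cultured cells, against 4248 ± 524 and 9338 ± 1951 CPM in fresh cells (SD, n = 5 each). Lipa, the acid lipase that frees cholesterol and fatty acids in lysosomes, had 1080, 1243, 1249, 945 and 1240 CPM in cultured cells, against 143, 124, 132, 149.8 and 181 CPM in fresh cells. Gla, which encodes alpha-galactosidase, rose by 2.32 (adjusted p = 2.71e-11), the osteoclast protease Ctsk by 2.27 and the proton pump subunit Atp6v0d2 by 2.04. The lysosomal genes that fell were Glb1, Asah1 and the transcription factor Tfec.

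Genes of fat storage and uptake followed. Plin2, the coat protein of lipid droplets, averaged 2106 ± 365 CPM in cultured cells and 597 ± 107 CPM in fresh cells, and Fabp4, a fatty acid carrier, had 60.5, 55.2, 56.6, 49.9 and 66.8 CPM in cultured cells, against 2.28, 3.38, 5.62, 3.65 and 7.95 CPM in fresh cells (log2 fold change 3.65 ± 0.41, adjusted p = 1.97e-07). Lgals3, a galectin abundant in lipid-laden macrophages, rose by 2.21, the cholesterol exporter of lysosomes Npc2 by 1.73, and the fatty acid receptor Cd36 by 1.55. Apoe, the apolipoprotein that carries cholesterol out of macrophages, fell, with 1276, 1871, 1185, 1302 and 1570 CPM in cultured cells, against 5268, 3710, 3976, 5478 and 6034 CPM in fresh cells (log2 fold change -1.76 ± 0.22, adjusted p = 5.34e-07), and the desaturase Scd2 also fell, by 1.99. Targets of the liver X receptors were split, with 3 of 10 higher (Abcg1, Nr1h3 and Mylip) and 6 lower, among them Abca7 at -1.82 and Arl4c at -1.12.

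Cholesterol synthesis and uptake fell, with 18 of 23 genes tested lower, the other 5 not passing and a median log2 fold change of -1.15. Pmvk and Mvd, enzymes of the mevalonate pathway, fell by 1.72 and 1.25 on the log2 scale (adjusted p = 2.10e-10 and 1.84e-09). Mvd was at 11.8 to 15.9 CPM in cultured cells and 25.6 to 34.6 CPM in fresh cells. Stard4, a carrier of cholesterol, fell by 1.90 on the same scale. The letters TCACNCCAC of the sterol regulatory element occurred in 1 of the 16 promoters with an entry (6.25%) and in 1.44% of all.

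Iron storage rose: 9 of 15 genes of iron and haem handling tested were higher and 3 lower. Fth1, the heavy chain of ferritin, had 23650, 25450, 18890, 21270 and 21230 CPM in cultured cells, against 5440, 4015, 4009, 6010 and 6966 CPM in fresh cells (log2 fold change 2.06 ± 0.19, adjusted p = 7.36e-09). Its values did not overlap between conditions, and with the authors' FPKM values its log2 fold change was 0.96. Its partner Ftl1 rose by 1.59 and the phagosomal metal transporter Slc11a1 by 1.12. Antioxidant genes under NRF2 rose in 10 of 21 cases and fell in 4. Prdx1, a peroxiredoxin, averaged 2558 ± 319.8 CPM in cultured cells and 644 ± 69.4 CPM in fresh cells (adjusted p = 2.90e-10), and Nqo1, a quinone reductase, was at 8.44 to 12.4 CPM in cultured cells and 0.389 to 1.2 CPM in fresh cells. The metallothionein Mt1 fell by 2.07. The letters TCACGTGA, bound by the lysosomal regulator TFEB, occurred in 6 of 20 lysosomal promoters and in 1.12% of all promoters, and the antioxidant element TGACNNNGC in 47.1% of 17 NRF2 targets and in 14% of all.

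The genes by which alternatively activated tumour macrophages are recognised were low after culture. Of 22 listed, 19 fell and 2 rose, and the median log2 fold change was -3.03. Mrc1, the mannose receptor CD206, had 439, 354, 339, 432 and 509.9 CPM in cultured cells, against 7602, 6325, 5470, 7738 and 8869 CPM in fresh cells (log2 fold change -4.12 ± 0.18, adjusted p = 4.52e-14). Arg1, arginase 1, had 302, 490.1, 295, 375 and 151 CPM in cultured cells, against 3811, 3100, 3910, 4917 and 3575 CPM in fresh cells (log2 fold change -3.58 ± 0.29, adjusted p = 1.11e-09). Both were among the abundant transcripts of fresh cells, and no cultured library came near the fresh range. Stab1, a scavenger receptor, fell to 188 ± 78.3 CPM in cultured cells, against 1679 ± 314 CPM in fresh cells, and the interleukin 4 receptor gene Il4ra to 314 ± 68.0 CPM in cultured cells, against 1610.1 ± 344 CPM in fresh cells. The lectin Clec10a fell by 4.02 and the hyaluronan receptor Lyve1 by 3.72 on the log2 scale. The 2 members that rose were Cd36 and the lipid receptor Trem2, and Tgm2, at -0.17, did not pass.

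Complement and uptake of dead cells moved less uniformly, with 11 of 18 genes tested lower and 4 higher. C1qa, a chain of the complement component C1q, had 431, 669.8, 430, 403 and 465 CPM in cultured cells, against 1857, 1516, 1601, 2024 and 2179 CPM in fresh cells (log2 fold change -1.94 ± 0.21, adjusted p = 1.12e-07), and C1qb and C1qc fell by 2.14 and 2.13. Pros1, a bridging protein between dead cells and their receptors, fell by 2.79. The members that rose were C3, the receptor C3ar1, the bridging protein Mfge8 and the integrin Itgb3, and the engulfment receptor Mertk, at 0.54, did not pass. Of the 6 Fc receptor genes 2 rose and 4 fell. Fcgr1, the high-affinity receptor for IgG, had 1400, 1601, 1092, 1237 and 1137 CPM in cultured cells, against 448, 397, 339, 429.9 and 437 CPM in fresh cells, and Fcgr4 rose by 1.00. Fcgr2b, the inhibitory receptor, had 303, 289, 231, 306 and 374 CPM in cultured cells, against 3023, 2620, 2517, 3392 and 3417 CPM in fresh cells (log2 fold change -3.31 ± 0.18, adjusted p = 1.15e-12), and Fcgr3, Fcer1g and Fcgrt fell by 1.82, 0.64 and 3.11.

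**Figure D3:**
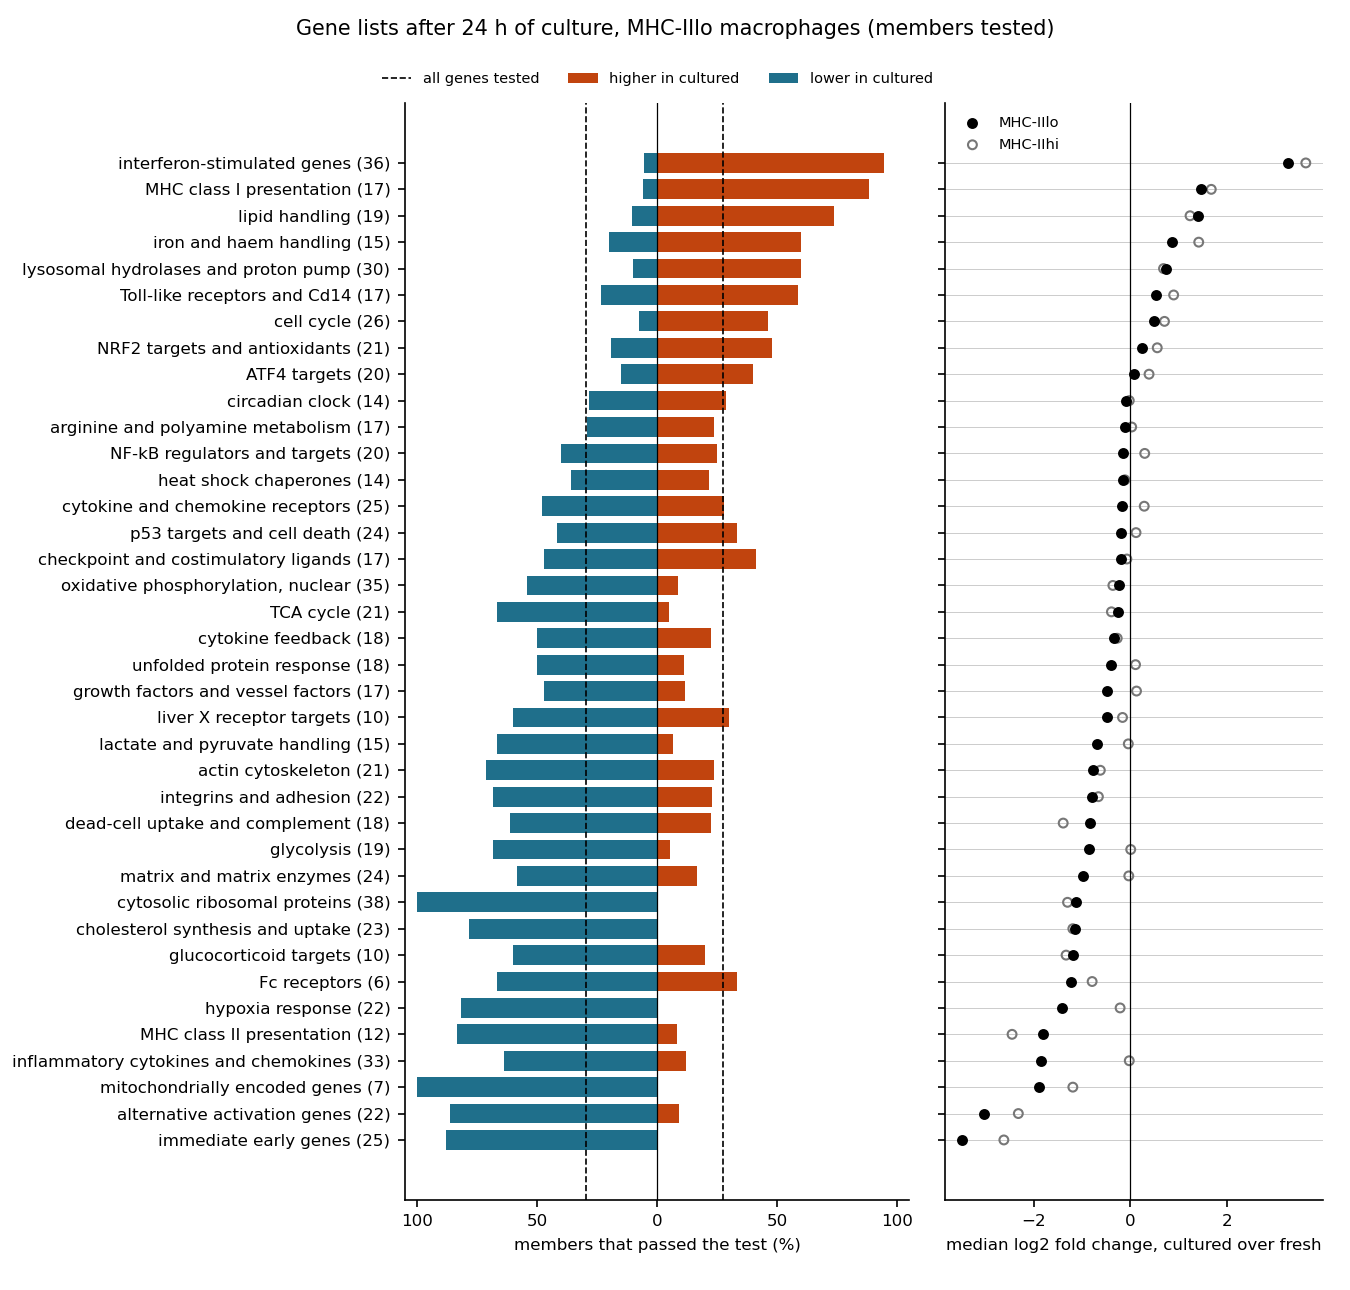
Left panel: share of the tested members of each gene list (number in brackets) that passed the test, higher in cultured cells to the right (orange) and lower to the left (blue), with dashed lines at the shares over all genes tested, 27.6% and 29.8%. Right panel: median log2 fold change, cultured over fresh, in MHC-IIlo (filled) and MHC-IIhi (open) cells, from 3.28 for interferon-stimulated genes to -3.49 for immediate early genes in MHC-IIlo cells.

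Hypoxia and glycolysis genes fell in culture, and for most of them the change was more negative than in MHC-IIhi cells. Of 22 hypoxia-response genes 18 fell and the other 4 did not pass (median log2 fold change -1.42), and of 19 glycolysis genes 13 fell and 1 rose (median -0.86). The medians for the same lists in MHC-IIhi cells were -0.21 and 0.01. The difference between the subsets was negative and passed for 18 of 22 hypoxia genes and 12 of 19 glycolysis genes, against 8.20% of all genes, and it did not pass for the others.

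Vegfa, the vessel growth factor, had 44.6, 50.1, 57.4, 49.9 and 33.3 CPM in cultured cells, against 265, 225, 293, 657 and 432 CPM in fresh cells (log2 fold change -2.99 ± 0.34, adjusted p = 2.74e-07). Its log2 fold change was -1.22 ± 0.32 in MHC-IIhi cells, a difference of -1.77 ± 0.45 (adjusted p = 0.0115). No cultured library reached the fresh range, in which libraries 4 and 5 were the highest. Slc2a1, the glucose transporter GLUT1, had 108, 136, 125, 126 and 107 CPM in cultured cells, against 520.5, 517, 495, 762 and 587 CPM in fresh cells (difference from MHC-IIhi -1.64 ± 0.32, adjusted p = 0.00144). Bnip3, a mitochondrial protein of autophagy, fell by 2.20 in MHC-IIlo cells and was at 0.46 in MHC-IIhi cells, a difference of -2.66 ± 0.33 (adjusted p = 1.71e-05). Ankrd37 and Pdk1, a kinase that inhibits pyruvate dehydrogenase, differed by -1.90 and -1.28 (adjusted p = 0.000343 and 4.15e-05). Pdk1 was at 31.1 to 42.5 CPM in cultured cells and 132 to 153 CPM in fresh cells. The members that did not pass in MHC-IIlo cells were Bnip3l, Kdm3a, P4ha1 and Plod2.

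Among the enzymes of glycolysis, Pfkl, the liver form of phosphofructokinase, had 82.6, 98.6, 77.0, 87.1 and 76.5 CPM in cultured cells, against 223, 207, 238, 279 and 215 CPM in fresh cells (log2 fold change -1.46 ± 0.14, adjusted p = 6.69e-09), and its change in MHC-IIhi cells was -0.24 ± 0.13 (difference -1.22 ± 0.19, adjusted p = 0.000152). Gpi1, the isomerase of glucose phosphate, averaged 234 ± 36.8 CPM in cultured cells and 917 ± 96.3 CPM in fresh cells, and Pgk1, phosphoglycerate kinase, averaged 127 ± 18.3 CPM in cultured cells and 314 ± 31.4 CPM in fresh cells. Aldoc, the brain form of aldolase, was at 0.606 to 2.04 CPM in cultured cells and 12.03 to 20.8 CPM in fresh cells. Hk2 fell by 1.49, whereas Hk3 was the list's single member that rose, with 764, 897, 666, 698 and 820.2 CPM in cultured cells, against 255, 206, 199.6, 301 and 305 CPM in fresh cells. Ldha, which makes lactate, fell by 0.47 and the lactate exporter Slc16a3 by 1.31, and both differences from MHC-IIhi cells were negative and passed. Gapdh, which has many near-identical pseudogenes, varied between libraries of the same group, with 27.1, 43.5, 25.3, 24.8 and 47.3 CPM in cultured cells, against 14.1, 136, 13.1, 43.5 and 159 CPM in fresh cells, and did not pass (adjusted p = 0.159). In all, 10 of 15 genes of lactate and pyruvate handling fell, 1 rose and 7 differed between the subsets, each with a negative difference. Ldhb, the other lactate dehydrogenase subunit, had 1.60, 1.46, 0.685, 1.46 and 0.720 CPM in cultured cells, against 1.94, 3.53, 2.64, 2.24 and 2.23 CPM in fresh cells (log2 fold change -1.08 ± 0.41, adjusted p = 0.0276), and did not pass without fresh library 2, cultured library 4 or cultured library 6 (adjusted p = 0.0739, 0.0726 and 0.0714). Gpr132, a receptor reported to respond to lactate, fell by 2.62 (adjusted p = 1.61e-10).

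The letters ACGTG, the core that hypoxia-inducible factors recognise, or CACGT on the other strand, occurred in 83.3% of 18 hypoxia promoters and 66.7% of 18 glycolysis promoters with an entry, and in 21.8% of all promoters. Slc2a1 and Bnip3 are shown because their differences between the subsets are given above, with the core in capitals.
Slc2a1 (chr4:119108595-119108744, plus strand): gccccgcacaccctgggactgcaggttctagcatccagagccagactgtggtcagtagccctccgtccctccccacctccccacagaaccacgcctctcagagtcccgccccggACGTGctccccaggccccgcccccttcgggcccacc
Bnip3 (chr7:138909507-138909656, minus strand): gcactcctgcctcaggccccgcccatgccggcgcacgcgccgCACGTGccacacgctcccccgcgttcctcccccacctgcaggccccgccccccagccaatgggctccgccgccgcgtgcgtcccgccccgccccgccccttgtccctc
In Bnip3 a match on each strand overlaps the other.

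Nuclear genes of mitochondrial energy metabolism fell more often than they rose, and the differences between the subsets that passed were positive. Of 21 genes of the TCA cycle 14 fell and 1 rose, with a median log2 fold change of -0.26. Of 35 nuclear genes of oxidative phosphorylation 19 fell and 3 rose (median -0.23). Genes that passed either way made up 71.4% and 62.9% of these lists, against 57.4% of all genes tested. Fh1, fumarase, averaged 25.3 ± 1.68 CPM in cultured cells and 49.3 ± 2.53 CPM in fresh cells (adjusted p = 8.01e-10), and Pdha1, a subunit of pyruvate dehydrogenase, averaged 88.2 ± 3.12 CPM in cultured cells and 134 ± 2.58 CPM in fresh cells. Uqcrfs1, the iron-sulphur protein of complex III, fell by 0.64 and the ATP synthase subunit Atp5d by 0.71. Sdha, the succinate dehydrogenase subunit that rose, had 236, 283, 231, 237 and 268 CPM in cultured cells, against 192, 183, 184, 189 and 184 CPM in fresh cells (log2 fold change 0.43 ± 0.08, adjusted p = 5.77e-05). The difference between the subsets was positive for 6 TCA cycle genes and 3 genes of oxidative phosphorylation and did not pass for the others. Without cultured library 3 it did not pass for any of those 3 by edgeR's test. All 7 tested protein genes of the mitochondrial genome fell (median -1.89), and 3 of them fell by more than in MHC-IIhi cells. Among the 3 was mt-Cytb, which encodes cytochrome b, with 326, 186, 283, 318 and 228 CPM in cultured cells, against 1374, 1648, 1424, 1755 and 1679 CPM in fresh cells. Their share of all counts moved with culture as given above, and its part in this result was not tested. Of the other 6 protein genes, 5 are listed at 0 and 1 has a single count over all 30 libraries.

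Inflammatory cytokines and chemokines mostly fell in MHC-IIlo cells, and many of them differed from MHC-IIhi cells. Of 33 tested, 21 fell and 4 rose in MHC-IIlo cells (median log2 fold change -1.86), against 14 that fell and 15 that rose in MHC-IIhi cells (median -0.02), where 30.4% of all genes fell and 31.5% rose. The difference passed for 16 of them, 14 negative and 2 positive. Il1b, interleukin 1 beta, had 8.17, 6.78, 2.82, 4.97 and 2.50 CPM in cultured cells, against 579, 679, 675, 1245 and 864 CPM in fresh cells (log2 fold change -7.32 ± 0.44, adjusted p = 2.49e-11). In MHC-IIhi cells Il1b averaged 269 ± 122 CPM in cultured and 1940.2 ± 643 CPM in fresh libraries, and the difference in log2 fold change was -4.47 ± 0.50 (adjusted p = 5.88e-06). Cxcl3, a chemokine for neutrophils, had 155, 82.5, 74.9, 107 and 69.0 CPM in cultured cells, against 859, 575, 526.0, 1122 and 929 CPM in fresh cells (log2 fold change -3.04 ± 0.32), whereas its log2 fold change was 1.61 ± 0.31 in MHC-IIhi cells (difference -4.64 ± 0.44, adjusted p = 1.07e-06). Cxcl1 went the same way, with -2.85 in MHC-IIlo and 1.35 in MHC-IIhi cells (adjusted p = 9.99e-05). Il6 was at 0.227 to 0.609 CPM in cultured and 11.6 to 34.5 CPM in fresh MHC-IIlo cells, and differed by -7.30 ± 0.60 from the change in MHC-IIhi cells (adjusted p = 2.45e-07).

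Some genes of mature dendritic cells and inflammatory macrophages rose less in MHC-IIlo than in MHC-IIhi cells, stayed near their floor or fell. Ccl22, a chemokine for regulatory T cells, had 0.625, 2.23, 0.837, 0.292 and 0.189 CPM in cultured cells, against 1.49, 1.84, 1.95, 0.678 and 0.477 CPM in fresh cells, with a log2 fold change of -0.64 ± 0.61 (adjusted p = 0.389). In MHC-IIhi cells it averaged 237 ± 59.6 CPM in cultured and 14.8 ± 8.18 CPM in fresh libraries (difference -4.64 ± 0.73, adjusted p = 0.000243). Ccr7, the receptor that guides dendritic cells to lymph nodes, was at 0.114 to 3.16 CPM in cultured and 0.159 to 1.37 CPM in fresh MHC-IIlo cells, with cultured library 3 the highest, and its change differed by -4.79 ± 1.06 from that in MHC-IIhi cells (adjusted p = 0.00445). Without fresh libraries 2 and 3 the adjusted p of that difference was 0.0508. Ccl22 and Ccr7 met the average level needed for naming through the MHC-IIhi libraries. A large negative difference therefore came with their selection and is no separate evidence. Nos2, the inducible nitric oxide synthase, did rise in MHC-IIlo cells, with 141, 279, 257, 194 and 158 CPM in cultured cells, against 21.6, 43.3, 25.2, 48.6 and 28.6 CPM in fresh cells (log2 fold change 2.62 ± 0.25, adjusted p = 1.93e-08). Its rise in MHC-IIhi cells was 5.66 ± 0.29 (difference -3.04 ± 0.34, adjusted p = 5.88e-06). Tnfrsf9, the costimulatory receptor 4-1BB, fell by 4.06 in MHC-IIlo cells and was at -0.27 in MHC-IIhi cells (difference -3.79 ± 0.28, adjusted p = 3.54e-08).

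**Figure D4:**
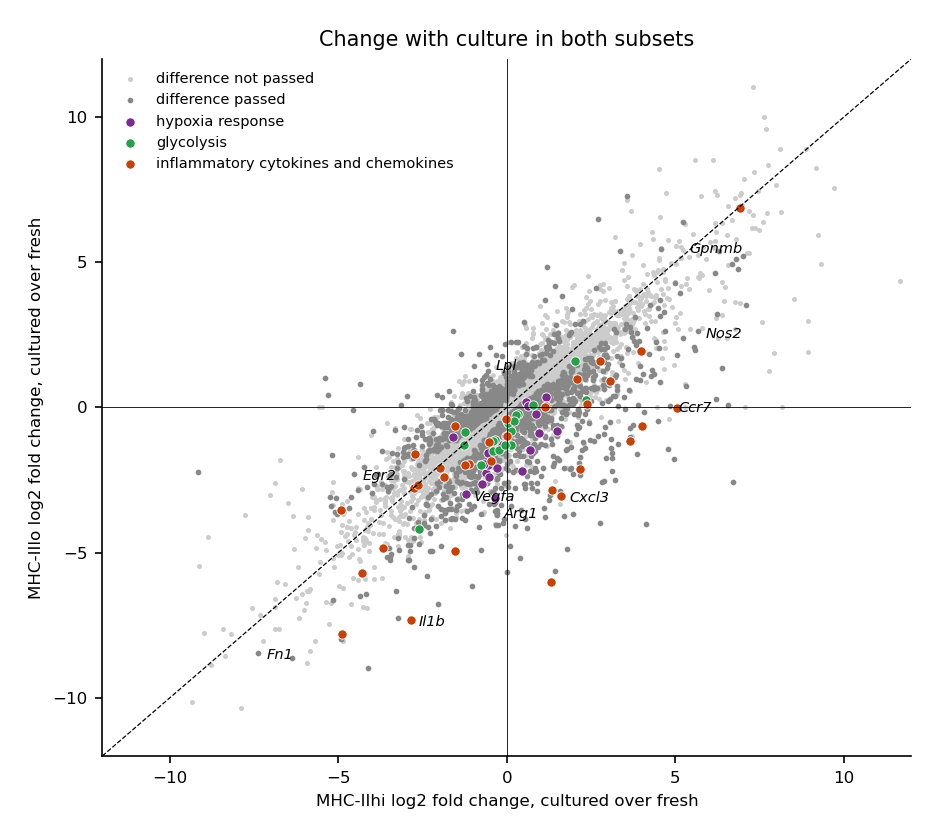
Log2 fold change with culture, cultured over fresh, of every gene tested in MHC-IIlo (vertical axis) against MHC-IIhi cells (horizontal axis), with the line of equal change dashed. Dark grey marks the 1940 genes whose difference passed, and the coloured hypoxia, glycolysis and cytokine genes lie mostly below the line, with Il1b at -7.32 in MHC-IIlo and -2.85 in MHC-IIhi cells.

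Most of the other chemokines of MHC-IIlo cells fell too. Ccl6, abundant in fresh cells, had 592, 827, 780.2, 748 and 739 CPM in cultured cells, against 9132, 7156, 7595, 9391 and 9300 CPM in fresh cells (log2 fold change -3.53 ± 0.16, adjusted p = 9.22e-14), and it was 1 of the 2 list members with a positive difference, its log2 fold change in MHC-IIhi cells being -4.92 ± 0.18. Ccl2, the main attractant of monocytes, averaged 806 ± 121 CPM in cultured cells and 2921 ± 860.1 CPM in fresh cells, and Cxcl2 and Ppbp fell by 4.94 and 4.83. Osm, oncostatin M, averaged 13.1 ± 1.99 CPM in cultured cells and 687 ± 158 CPM in fresh cells. The genes that rose besides Ccl5 were Cxcl10, Cxcl16 and the growth factor Csf1, by 1.95, 0.98 and 1.61. Tnf and Il10, at -0.42 and 0.92, did not pass. Regulators and targets of NF-kB stood near the background, with 8 of 20 lower and 5 higher, yet 10 of the 20 had a negative difference from MHC-IIhi cells that passed. Nfkbiz fell to 24.6 ± 4.36 CPM in cultured cells, against 150.03 ± 105.3 CPM in fresh cells, the adhesion molecule Icam1 fell by 1.39, and Sod2, the mitochondrial superoxide dismutase, rose by 0.97 in MHC-IIlo and 2.33 in MHC-IIhi cells (adjusted p = 2.07e-05 for the difference).

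The 6 largest positive differences between the subsets, by the rule used to name genes, were those of Egr2, Lpl, Tmem154, Fam198b, Matk and Clec12a. Lpl, lipoprotein lipase, had 580.5, 305, 326, 338 and 361 CPM in cultured cells, against 149, 171, 119, 117 and 126 CPM in fresh cells (log2 fold change 1.49 ± 0.22), and -0.59 ± 0.21 was its log2 fold change in MHC-IIhi cells (difference 2.08 ± 0.30, adjusted p = 0.000102). Cultured library 1 was the highest, and with all 30 libraries in the fit the adjusted p of the difference was 0.0727. Tmem154, a membrane protein, averaged 128 ± 9.82 CPM in cultured and 26.8 ± 4.40 CPM in fresh MHC-IIlo cells, with a log2 fold change of 2.25, against 0.34 in MHC-IIhi cells (difference 1.91 ± 0.24, adjusted p = 1.85e-05). Fam198b rose by 0.93 in MHC-IIlo cells and was at -0.93 in MHC-IIhi cells, and the inhibitory lectin receptor Clec12a was at 1.05 and -0.67. Matk, a kinase that restrains Src family kinases, fell in both, with log2 fold changes of -3.41 in MHC-IIlo and -5.21 in MHC-IIhi cells (difference 1.80 ± 0.27, adjusted p = 0.000102).

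**Figure D5:**
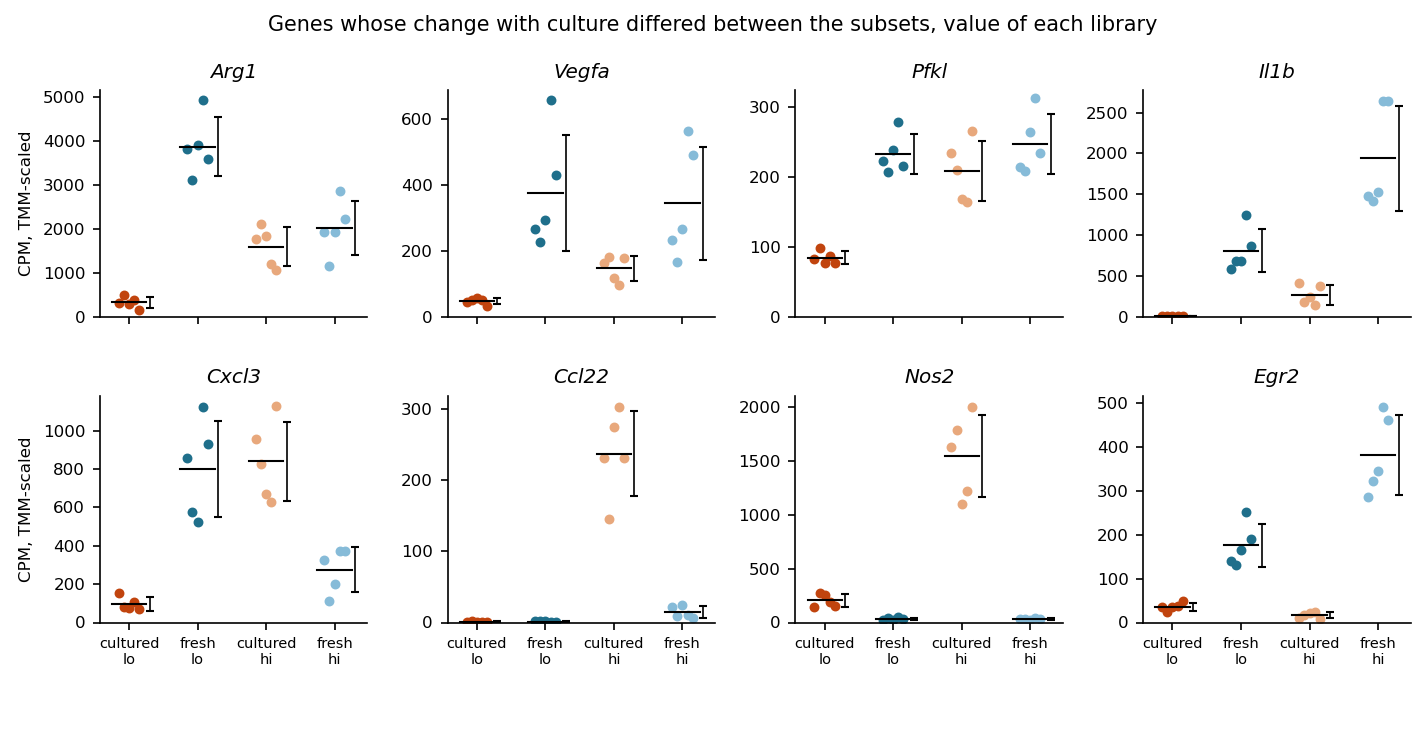
CPM (linear axis, TMM-scaled) of 8 genes in each library of 4 groups, from left to right cultured MHC-IIlo, fresh MHC-IIlo, cultured MHC-IIhi and fresh MHC-IIhi; horizontal bars are means and the error bars beside them are SD, n = 5 each. Arg1, Vegfa, Pfkl, Il1b and Cxcl3 are lowest in cultured MHC-IIlo cells, Ccl22 is high in cultured MHC-IIhi cells, and Egr2 is lowest in cultured MHC-IIhi cells.

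Receptors for these signals changed in both directions, with 12 of 25 lower and 7 higher. Ccr2, the receptor by which monocytes leave the blood, had 9.63, 17.96, 7.54, 10.2 and 9.81 CPM in cultured cells, against 439, 576, 434, 397 and 288 CPM in fresh cells (log2 fold change -5.27 ± 0.40, adjusted p = 8.78e-10). Csf1r, the receptor for the growth factor that sustains macrophages, had 658, 512, 310.3, 466.4 and 516 CPM in cultured cells, against 1270, 1154, 1077, 1376 and 1312 CPM in fresh cells (log2 fold change -1.33 ± 0.15, adjusted p = 1.14e-07). For both genes every cultured library lay below all fresh ones. Il1rn, the natural antagonist of the interleukin 1 receptor, rose to 1894 ± 343 CPM in cultured cells, against 607 ± 137 CPM in fresh cells, Csf2rb rose by 1.77 and Tnfrsf1b by 1.80. The decoy receptor Il1r2 and the interferon gamma receptor Ifngr1 fell by 2.85 and 1.51 (adjusted p = 1.82e-10 and 6.79e-11).

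MHC class II genes, already low in this subset, were lower still after culture. Of 12 listed, 10 fell and 1 rose, with a median log2 fold change of -1.81. Cd74, the invariant chain, had 93.03, 225, 59.1, 52.7 and 69.6 CPM in cultured cells, against 478, 738, 602, 475 and 353 CPM in fresh cells (log2 fold change -2.41 ± 0.32, adjusted p = 1.91e-06). H2-Ab1 had 28.7, 72.7, 15.8, 15 and 18.7 CPM in cultured cells, against 68.1, 124, 114, 83.0 and 55.4 CPM in fresh cells (log2 fold change -1.56 ± 0.36, adjusted p = 0.000879), and the groups overlapped because cultured library 3 was higher than 2 of the fresh libraries. Without cultured library 3 the log2 fold change of H2-Ab1 was -2.18. The same library was the highest of its group for Cd74, H2-DMa and Itgax, and fresh libraries 2 and 3 were the highest of theirs for H2-Ab1 and Cd74. Without cultured library 3 the list's median was -2.45 with 10 genes lower, and without fresh libraries 2 and 3, left out after the data were seen, it was -1.29 with 8 lower. H2-DMb2 was at 0.114 to 0.292 CPM in cultured cells and 6.00 to 8.99 CPM in fresh cells, and Ciita, the master regulator of these genes, fell by 2.49 (adjusted p = 8.45e-05). The member that rose was the protease Ctss, at 1.07. For 4 members the fall was smaller than in MHC-IIhi cells by the test of the difference, among them H2-DMa (1.17 ± 0.26, adjusted p = 0.00463). Without cultured library 3 the differences that passed were 3 positive and 1 negative.

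Ligands that steer T cells changed one by one, with 7 of 17 higher and 8 lower. Besides Cd274 and Nos2, the genes that rose included Havcr2, which encodes TIM-3, by 1.49 and Lgals9, one of its ligands, by 1.41. Icosl, the ligand of the costimulatory receptor ICOS, had 5.21, 5.05, 4.76, 4.89 and 3.22 CPM in cultured cells, against 32.5, 33.1, 26.5, 30.1 and 30.8 CPM in fresh cells (log2 fold change -2.72 ± 0.15, adjusted p = 1.45e-12). Pdcd1lg2, Cd80 and Cd86 fell by 2.82, 1.55 and 1.21, and the immunosuppressive cytokine Tgfb1 fell to 218 ± 29.6 CPM in cultured cells, against 514 ± 71.6 CPM in fresh cells. Ptgs2, the inducible cyclooxygenase, had 11.5, 12.8, 16.6, 16.8 and 13.1 CPM in cultured cells, against 105.1, 141, 143, 376 and 240.5 CPM in fresh cells, and was at -0.07 in MHC-IIhi cells on the log2 scale (difference -3.76 ± 0.66, adjusted p = 0.000668). Each of the 8 members whose change differed between the subsets had a negative difference. In arginine metabolism 4 of 17 genes rose and 5 fell, or 52.9% either way, against 57.4% of all genes tested. The log2 fold change of Arg1 was -3.58 ± 0.29 in MHC-IIlo and -0.34 ± 0.26 in MHC-IIhi cells (difference -3.24 ± 0.38, adjusted p = 7.00e-06). That of the arginine transporter Slc7a2 was -2.20 in MHC-IIlo and 0.68 in MHC-IIhi cells (difference -2.88 ± 0.34, adjusted p = 1.10e-05).

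Matrix, adhesion and cytoskeleton genes fell. In the matrix list 14 of 24 fell and 4 rose (median log2 fold change -0.98), in integrins and adhesion 15 of 22 fell and 5 rose (median -0.80), and in the actin cytoskeleton 15 of 21 fell and 5 rose (median -0.77). Mmp9, a gelatinase, had 49.4, 37.7, 55.4, 33.5 and 42.9 CPM in cultured cells, against 579.7, 519.9, 649, 1329 and 692 CPM in fresh cells (log2 fold change -4.11 ± 0.35, adjusted p = 4.13e-09). Vcan, the proteoglycan versican, averaged 67.0 ± 20.0 CPM in cultured cells and 695 ± 195 CPM in fresh cells. Itgam, which encodes CD11b, had 1059, 907, 635, 864 and 879 CPM in cultured cells, against 4428, 3840, 3618, 4710 and 3951 CPM in fresh cells (log2 fold change -2.24 ± 0.15, adjusted p = 2.40e-11). Itgax, which encodes CD11c, fell by 2.96 in MHC-IIlo cells, a smaller fall than in MHC-IIhi cells by 1.02 ± 0.20 (adjusted p = 0.00164). Actb, beta-actin, had 4110, 3032, 2570, 3256 and 2930 CPM in cultured cells, against 10000, 8628, 7920, 9355 and 8457 CPM in fresh cells, and the actin bundling protein Lcp1 and the tropomyosin Tpm4 fell by 1.89 and 1.22. The integrins Itga5, Itga6, Itgav, Itgb3 and Itgb7 rose, and in the matrix list those that rose included Lox, Mmp8 and Serpinb2. Of the 24 matrix genes, 15 had a negative difference from MHC-IIhi cells, for example Serpinb2, with a rise of 1.28 in MHC-IIlo and 4.32 in MHC-IIhi cells (difference -3.04 ± 0.43, adjusted p = 7.95e-05).

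Cytosolic ribosomal protein genes fell without exception in the list of 38, with a median log2 fold change of -1.12 in MHC-IIlo and -1.3 in MHC-IIhi cells. Rps16 had 32.7, 32.8, 32.3, 33.9 and 32.3 CPM in cultured cells, against 129.8, 132, 138, 123 and 132 CPM in fresh cells. These genes have many near-identical pseudogenes, so their levels are uncertain. Chaperones and folding enzymes of the endoplasmic reticulum fell in 9 of 18 cases and rose in 2. That is 61.1% either way, close to the 57.4% of all genes tested. Of the 18, 7 differed from MHC-IIhi cells, all negatively. Xbp1, the transcription factor of the unfolded protein response, averaged 143 ± 13.9 CPM in cultured cells and 335 ± 28.7 CPM in fresh cells (adjusted p = 1.58e-09), and the disulphide isomerase Pdia6 averaged 228 ± 30.1 CPM in cultured cells and 434 ± 18.1 CPM in fresh cells. ATF4 targets stood near the background, with 8 of 20 higher and 3 lower, but Ddit3, which encodes the stress factor CHOP, had 121, 203, 134, 111 and 126 CPM in cultured cells, against 17.2, 15.7, 14.1, 20.1 and 21.3 CPM in fresh cells (log2 fold change 2.97 ± 0.30, adjusted p = 4.21e-08). The transcription factor Cebpb fell by 1.73 (adjusted p = 1.03e-08).

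Proliferation genes were somewhat higher, with 12 of 26 tested higher, 2 lower and a median log2 fold change of 0.49. The share that passed either way, 53.8%, was close to the 57.4% of all genes tested. Pcna, the sliding clamp of DNA replication, had 144, 138, 136, 134 and 131 CPM in cultured cells, against 76.8, 74.9, 88.04, 78.0 and 91.6 CPM in fresh cells (log2 fold change 0.74 ± 0.08, adjusted p = 3.58e-08). Mki67 and Top2a, at 0.45 and 0.62, did not pass, and their values overlapped. Cdkn1a, the cell cycle inhibitor p21, fell to 126 ± 20.0 CPM in cultured cells, against 575 ± 95.9 CPM in fresh cells. The count depends on the libraries used. Fresh libraries 2 and 3 were the highest of their group for Mki67 and Top2a, without these libraries 19 genes were higher, and over all alternatives the count was 9 to 19.

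The identity genes of macrophages did not move one way, with 5 of 15 higher and 7 lower, and their summed level, in CPM of the library total, was 16810 to 21170 CPM in cultured cells and 27270 to 28960 CPM in fresh cells. Mpeg1, the pore protein perforin 2, had 5359, 5124, 4023, 5078 and 5645 CPM in cultured cells, against 793, 738, 734, 965 and 903 CPM in fresh cells, and Ms4a7, a membrane protein of macrophages, rose by 1.43. Lyz2, lysozyme, fell by 1.18 and the lineage factor Maf by 1.98. Of 11 monocyte markers 9 fell, with a summed level of 165 to 253 CPM in cultured cells and 8654 to 14710 CPM in fresh cells, most of it Fn1 in fresh cells. F13a1, a transglutaminase of monocytes, had 48.9, 85.9, 57.9, 56.5 and 67.0 CPM in cultured cells, against 1605, 1366, 1335, 1783 and 2257 CPM in fresh cells (log2 fold change -4.72 ± 0.26, adjusted p = 2.69e-12). The exception was Ly6c2, with 64.5, 34.1, 21.4, 28.3 and 37.5 CPM in cultured cells, against 3.71, 3.43, 2.68, 2.87 and 4.29 CPM in fresh cells (log2 fold change 3.46 ± 0.56, adjusted p = 2.72e-05). In bulk libraries, fewer cells of a type and less RNA of that type per cell cannot be told apart.

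Markers of other cells moved with culture in the same libraries, and their part in the results above was not tested. Summed levels cover all genes of a list, tested or not, in CPM of the library total. Neutrophil markers, 2 of 7 higher and 3 lower, summed to 747 to 1001 CPM in cultured cells and 442 to 643 CPM in fresh cells, most of it Mmp8, while Ly6g, Camp, Ngp, Ltf, Elane and Mpo were too low to test. S100a9 was at 0.0695, 0, 0, 0 and 0 CPM in cultured cells, against 15.6, 24.6, 22.9, 26.5 and 45.3 CPM in fresh cells. Other members did not follow it. S100a8 was at 11.93 to 18.8 CPM in cultured cells and 11.99 to 19.82 CPM in fresh cells. Lcn2 was at 1.97 to 5.665 CPM in cultured cells and 1.199 to 1.886 CPM in fresh cells. Haemoglobin genes were near 0 in every cultured library, with Hbb-bs at 0.0348, 0, 0.0381, 0.167 and 0.0379 CPM in cultured cells, against 1.26, 16.3, 3.03, 23.5 and 13.5 CPM in fresh cells, and the 9 listed erythroid and platelet genes summed to 0.293 to 0.499 CPM in cultured cells and 2.63 to 41.4 CPM in fresh cells, most of it the platelet integrin Itga2b in cultured cells. Dendritic cell markers, 5 of 9 lower, summed to 4.40 to 9.17 CPM in cultured cells and 10.5 to 18.5 CPM in fresh cells, and fibroblast and pericyte markers, 8 of 12 lower and 2 higher, to 41.2 to 83.0 CPM in cultured cells and 40.8 to 136 CPM in fresh cells. Rgs5, a pericyte marker, was at 0 in all 5 cultured libraries and at 0.636 to 2.22 CPM in fresh ones. Dcn, a fibroblast marker of the same list, went the other way, with 13.9 to 29.12 CPM in cultured cells and 3.656 to 14.41 CPM in fresh cells. T and NK cell markers, 4 of 11 lower (1 without fresh libraries 2 and 3) and 1 higher, summed to 861 to 1022 CPM in cultured cells and 24.7 to 38.3 CPM in fresh cells, most of it Il7r, which had 888, 1098, 973, 1021 and 1038 CPM in cultured cells, against 19.6, 20.4, 16.96, 36.5 and 22.04 CPM in fresh cells. Cd3e, a chain of the T cell receptor complex, was at 0.139, 0.0385, 0.228, 0 and 0 CPM in cultured cells, against 0.228, 0.339, 0.0865, 0.157 and 0 CPM in fresh cells. B cell markers summed to 22.1 to 41.0 CPM in cultured cells and 3.76 to 13.9 CPM in fresh cells, most of it Pax5, at 23.8 to 39.1 CPM in cultured cells and 2.97 to 9.65 CPM in fresh cells, while Cd79b fell and Cd79a and Ms4a1 were too low to test. Endothelial markers, 2 of 6 higher and 2 lower, summed to 318 to 389.6 CPM in cultured cells and 96.1 to 136 CPM in fresh cells: Kdr, a receptor of Vegfa, had 279.8, 359, 262, 278 and 337 CPM in cultured cells, against 10.7, 6.92, 8.05, 8.25 and 10.01 CPM in fresh cells, whereas Pecam1 had 4.83, 7.86, 5.48, 4.64 and 5.99 CPM in cultured cells, against 87.1, 80.9, 69.1, 98.4 and 72.5 CPM in fresh cells. Epithelial and carcinoma markers, 2 of 3 lower, summed to 39.7 to 62.3 CPM in cultured cells and 132 to 304 CPM in fresh cells, most of it Krt8 and, in fresh cells, Cdh1. Epcam was at 0 to 0.167 CPM in cultured cells and at 0 in all fresh libraries, and Krt5, Krt18 and Sftpc had no count in these 10 libraries. The mast cell genes tested, Kit and Gata2, were at -0.67 and 0.19 and did not pass, and Fcer1a had no count in these 10 libraries.

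The cells cultured for the same time with 20 mM sodium L-lactate share the fresh libraries as their starting point, and their values are given beside these without a comparison, on a scaling over all 30 libraries. Ifit2 was at 459 to 1662 CPM with lactate, 1878 to 2215 CPM without lactate and 35.05 to 53.3 CPM in fresh MHC-IIlo cells. Gpnmb was at 4137 to 12200 CPM with lactate, 11640 to 14680 CPM without lactate and 216 to 303 CPM in fresh cells. For Fn1 the ranges were 27.9 to 108 CPM with lactate, 19.4 to 34.0 CPM without lactate and 5980 to 10600 CPM in fresh cells, and for Fos 25.7 to 80.4, 39.3 to 75.7 and 2132 to 3242 CPM in the same order. Il1b was at 8.72 to 129 CPM with lactate, 2.48 to 8.23 CPM without lactate and 577 to 1244 CPM in fresh cells. For these 5 genes neither cultured range reached the fresh one.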

How the data were processed

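The deposited gene table holds raw read counts for 46603 genes in 30 libraries. Per the submitters' processing notes, Trimmomatic, STAR and featureCounts were used with the GRCm38 build, with versions not given in the sources used here. Gene coordinates are those of the deposited table. A deposited FPKM table of 13778 genes, whose values share 1 distribution across libraries, served as an alternative only.

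Counts of the 20 libraries without lactate were fitted with edgeR 4.0.16 in R 4.3.3 (filterByExpr, TMM, robust quasi-likelihood test), p-values adjusted by Benjamini-Hochberg over 13682 genes. Levels are TMM-scaled CPM, list sums CPM of the library total. Alternatives used limma 3.58.1, DESeq2 1.42.0, other scalings, filters and libraries, and log2(FPKM + 1) or + 0.1 with limma. The scripts were tested on simulated data.

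Named genes were the 12 largest rises and falls and the 6 largest differences each way with an average log2 CPM of at least 5, rises and falls without overlap between the groups, the 2 smallest p-values per list, a fixed few, and list members named for their role. Members and lists were chosen with earlier results of these data known. Promoter sequences are from RefSeq.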

Additional observations from a re-analysis of the deposited data

Results flagged for a closer look

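In 31 of 260 groups of 5 libraries examined, the highest or lowest library stood apart from the other 4 by more than Dixon's critical value of 0.71. For independent, normally distributed values about 1 in 20 groups would do so. The groups here share the same libraries and some rest on a few reads, so that rate is only a loose guide. Cultured library 3 accounts for 16 of the 31 and was the highest of its group each time. Its values were 225 CPM for Cd74, against 52.7 to 93.03 CPM in the other cultured libraries, 72.7 CPM for H2-Ab1, 29.7 CPM for H2-DMa, 14.9 CPM for Itgax and 3.16 CPM for Ccr7. Among interferon-regulated and class I genes it had 1467 CPM for Ly6a, 1145 CPM for Ifit1, 1007 CPM for Ifit1bl1 and 999 CPM for H2-T23. It also had 14890 CPM for Gpnmb, 572 CPM for Ccl5, 203 CPM for Ddit3, 131 CPM for Npy, 71.4 CPM for Uqcrfs1, 3.20 CPM for Egr1 and 2.04 CPM for Aldoc.

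The other cultured libraries that stood apart were library 1 with 580.5 CPM for Lpl, library 4 with 345 CPM for Fcgr3 (the lowest) and library 6 with 3.22 CPM for Icosl (the lowest). Cultured library 5 had 33.9 CPM for Rps16 and 3.97 CPM for Nr4a1. At levels of a few reads, cultured library 5 had 0.167 CPM for Hbb-bs and 0.0836 CPM for Hba-a1, and cultured library 1 had 0.0695 CPM for S100a9. Among fresh libraries, library 5 was the lowest for Fn1 with 5987 CPM, for Mvd with 25.6 CPM and for Aldoc with 12.03 CPM. Fresh library 4 was the highest for Azin1 with 129 CPM and for Il7r with 36.5 CPM, fresh library 2 the highest for H2-DMb2 with 8.99 CPM, and fresh library 3 the lowest for Tapbp with 276.5 CPM.

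The change with culture differed between MHC-IIlo and MHC-IIhi cells by edgeR's test of the difference itself for 20 named genes. On the log2 scale, MHC-IIlo minus MHC-IIhi, it was negative for Ccr7 (-4.79), Cxcl3 (-4.64), Ccl22 (-4.64), Il1b (-4.47), Cxcl1 (-4.20), Tnfrsf9 (-3.79), Arg1 (-3.24), Nos2 (-3.04), Ankrd37 (-1.90), Vegfa (-1.77), Adgre1 (-1.60), Aldoc (-1.57), Pdk1 (-1.28) and Pfkl (-1.22). It was positive for Egr2 (2.25), Lpl (2.08), Tmem154 (1.91), Fam198b (1.86), Matk (1.80) and Clec12a (1.71). For Adgre1 the log2 fold change was 0.50 ± 0.19 in MHC-IIlo and 2.09 ± 0.19 in MHC-IIhi cells. Ccr7 and Ccl22 were near the floor in all MHC-IIlo libraries, with highest values of 3.16 and 2.235 CPM. They met the average level needed for naming through the MHC-IIhi libraries, and their changes in MHC-IIlo cells are uncertain.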

How the results depend on the processing

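The count of genes that passed for culture stayed between 7423 and 8718 in all fits to the counts, from 7423 to 8042 when each library was left out in turn, and from 7064 to 7914 in the fits to FPKM. No call turned its direction in a fit to the counts, and 1 did in each FPKM fit. For the difference between subsets, 1629 to 2028 genes passed with a library left out. The number of positive differences, 818, was 488 with all 30 libraries in the fit and 1374 with unfiltered FPKM values, and the cause was not tested. A fit with the number in the column name as a block called 7733 genes for culture and 1910 for the difference. Of the 7850 calls, 7378 stayed in the same direction. Same-numbered cultured and fresh libraries correlated at 0.0193, -0.145, -0.163 and -0.0619 in their deviations from the group means. These values show no pairing by number, but so few pairs cannot exclude it. Without fresh libraries 2 and 3, chosen after seeing the data, 7664 genes passed for culture and 1783 for the difference.

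Over the named genes and all alternatives, 15 values for culture and 4 for the difference lost significance under an alternative, none reversed, and 8 differences gained it. Adgre1 had an adjusted p of 0.0857 with the block and 0.18 without fresh libraries 2 and 3, and Ldhb 0.142 without these. With FPKM + 1, the log2 fold change of 43 of 122 named genes moved by over 1.5 times, in 41 towards 0, among them Psap at 0, Fth1 at 0.96 and Gpnmb at 3.92. In the other fits at most 6 of 126 moved as far, apart from 23 of 122 with FPKM + 0.1 and 47 of 126 with unfiltered FPKM. Among them Cd200 was at 7.52 without fresh libraries 2 and 3. The difference for Aldoc was -0.203 with FPKM + 1. Genes with a few reads per library, such as Hbb-bs and S100a9 after culture, are limited by depth.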

Other observations

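Of 18 feedback inhibitors of cytokine and growth factor signalling, 9 fell and 4 rose (median log2 fold change -0.34, against -0.01 over all genes tested). Cish, an inhibitor of STAT5 signalling, had 3.93, 5.82, 4.00, 5.93 and 3.90 CPM in cultured cells, against 73.1, 62.4, 62.5, 67.3 and 63.5 CPM in fresh cells (log2 fold change -3.80 ± 0.18, adjusted p = 1.20e-13). Dusp6, a phosphatase of ERK, had 61.0, 39.2, 36.2, 47.4 and 32.2 CPM in cultured cells, against 563, 377, 394, 556 and 559.6 CPM in fresh cells, and Spry1, an inhibitor of receptor tyrosine kinases, was at 0.209 to 0.417 CPM in cultured cells and 7.25 to 15.2 CPM in fresh cells. Socs3, induced by interleukin 6 and 10, fell to 135 ± 44.9 CPM in cultured cells, against 705 ± 152 CPM in fresh cells, whereas Socs1, induced by interferons, rose to 36.1 ± 8.45 CPM in cultured cells, against 14.2 ± 1.58 CPM in fresh cells (SD, n = 5 each). Of 10 glucocorticoid targets 6 fell and 2 rose (median -1.19). Fkbp5, a chaperone of the glucocorticoid receptor, fell to 14.6 ± 1.81 CPM in cultured cells, against 45.0 ± 7.57 CPM in fresh cells, and Sgk1, a serum and glucocorticoid induced kinase, rose to 431 ± 90.7 CPM in cultured cells, against 160.3 ± 59.8 CPM in fresh cells.

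Of 14 clock genes 4 rose and 4 fell, and of 17 growth and vessel factors 2 rose and 8 fell, or 57.1% and 58.8% in either direction, against 57.4% of all genes tested. Bhlhe41, a repressor in the clock, had 99.9, 98.9, 106, 96.0 and 113 CPM in cultured cells, against 8.51, 10.2, 10.9, 16.2 and 14.8 CPM in fresh cells (log2 fold change 3.08 ± 0.21, adjusted p = 1.42e-10). Igf1, insulin-like growth factor 1, rose to 31.6 ± 9.07 CPM in cultured cells, against 10.2 ± 3.65 CPM in fresh cells, with cultured library 1 the highest, and Hbegf, a ligand of the epidermal growth factor receptor, fell to 8.49 ± 1.55 CPM in cultured cells, against 43.8 ± 12.96 CPM in fresh cells. Among p53 targets and cell death genes 8 of 24 rose and 10 fell. Mdm2, the ubiquitin ligase that degrades p53, had 248, 286, 282, 231 and 270.5 CPM in cultured cells, against 89.9, 82.8, 82.2, 91.7 and 99.9 CPM in fresh cells (log2 fold change 1.56 ± 0.14, adjusted p = 4.87e-09), and the death receptor gene Fas fell to 6.36 ± 0.900 CPM in cultured cells, against 15.8 ± 1.52 CPM in fresh cells.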
